A study of Arabidopsis thaliana with 24 samples.

Results

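Chitin treatment for 30 min changed the transcript level of 2001 probe sets in seedlings of *rre2-1*, an *Arabidopsis thaliana* insertion mutant in *ATL2*. Of the probe sets tested, those with the highest mean signal over the series, 1370 rose and 631 fell. The response was measured on 8 of the 24 ATH1 arrays of the series, 4 of chitin-treated and 4 of mock-treated *rre2-1* seedlings, chosen by their titles. The labels describe *rre2-1* as a line with a T-DNA in At3g16720, whose product, also called ATL2, has the RING domain of ubiquitin E3 ligases. The 16 other arrays came from the insertion line *atl9-1* (called *rre1-1* in the labels, T-DNA in At2g35000) and from wild-type Col-0, each with and without chitin on 4 arrays. All seedlings had grown for 14 days in shaken liquid Murashige and Skoog medium with dextrose under constant light. Acid-hydrolyzed crab-shell chitin was then added at 100 mg/L, or the same amount of sterile water in the mock flasks, which the labels also call untreated. Whole seedlings were harvested, and each of the 4 biological replicates of a group was hybridized to 1 array with 15 µg of cRNA. Each mutant is represented by 1 insertion allele. The transcripts of *ATL2* and *ATL9* themselves are not analysed here, so the labels of the mutants were not checked on the targeted gene.

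Chitin is a polymer of the fungal cell wall. Plants perceive its fragments at the cell surface through receptor kinases with LysM domains. Calcium influx, an oxidative burst and MAP kinase activation follow within minutes, and transcripts of WRKY, ERF and NAC transcription factors, of calmodulin-like proteins and of ubiquitin ligases accumulate soon afterwards. The ATL family consists of RING-type E3 ubiquitin ligases with a hydrophobic stretch that may anchor them in membranes. *ATL2* is one of its early elicitor-responsive members. Ubiquitin ligases of a different kind, the plant U-box (PUB) proteins PUB22, PUB23 and PUB24, are known to dampen pattern-triggered responses.

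The values are signals on a linear scale, each divided here by its array's median, taken over 22746 probe sets after leaving out controls, and they are called relative signal below. A relative signal of 1 is the median of the array. A change is the log2 difference between chitin and mock, given with its standard error, and a probe set passed where limma's p, adjusted over all probe sets tested, was under 0.05. These p-values rest on the spread between cultures of the same group, pooled over all groups of a fit. For the response of *rre2-1* these are the groups of *rre2-1* and Col-0. With the *rre2-1* arrays alone 1193 probe sets rose and 439 fell. Array medians before the division ranged over 138.7 to 189.3 in the 24 arrays. They were 153.3 ± 4.2 after chitin and 173.7 ± 11.7 in mock for *rre2-1* (SD, n = 4 each), a difference of -20.4 (two-sided exact permutation test, p = 0.0286, the smallest that 4 against 4 arrays allow). Without any 1 of the chitin arrays p was 0.0571 in this permutation test, and without any 1 of the mock arrays it was 0.0286. The medians did not overlap, with at most 157.1 after chitin and at least 161.6 in mock. Mean medians after chitin and in mock were 153.1 and 176.4 in Col-0 and 158.9 and 178.7 in *atl9-1*. The balance of rises and falls depended on the division. With the values as deposited, 1114 probe sets rose and 2105 fell in *rre2-1*, and with quantile normalization 1248 rose and 1302 fell, so that rises made up 34.6% and 48.9% of the calls, against 68.5% in the values used here. Over all probe sets the median change (log2) was -0.18 as deposited and -0.09 after quantile normalization. All 24 genes named below for the size of their change, which were chosen on these same arrays, kept direction and call in each of these scalings. Chitin samples of every line were processed in fluidics module 2 or 4 and mock samples in module 1 or 3, and module and treatment cannot be told apart. Both shoot and root transcripts were present in *rre2-1*. The antenna protein gene *LHCB4.1* had relative signals of 41.0, 37.9, 35.1 and 28.5 after chitin and of 51.0, 28.7, 38.0 and 41.0 in mock, and the root hair expansin gene *EXPA7* averaged 5.96 after chitin and 7.04 in mock.

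In *rre2-1*, 8.29% of the probe sets tested rose and 3.82% fell. At an unadjusted p of 0.05, 3811 differed. The median rise was 1.16 and the median fall was -0.78 on the log2 scale, beside a median standard error of 0.18. At least 2-fold changes made up 822 of the rises and 181 of the falls, and at least 4-fold changes 282 and 14. Of the rises, 741 matched 1 gene of the annotation, and of the falls 342. The largest change of any probe set, a rise of 7.28, belongs to a probe set that is not listed there and is not named. In whole seedlings, fewer cells of a type and less RNA per cell cannot be told apart.

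The 12 largest rises with a single gene were transcripts near or below the array median in mock that stood far above it after chitin. Transcription factor genes were among them. *AT3G12910*, which encodes a NAC-type factor, had relative signals of 13.5, 15.6, 14.6 and 10.6 in the chitin samples of *rre2-1* and of 0.0961, 0.261, 0.338 and 0.287 in its mock samples. Its log2 change was 5.92 ± 0.48 (SE, adjusted p = 2.21e-07, limma), or 60.4-fold. *AT1G22810*, a gene of the AP2/ERF family, had 4.69, 4.26, 4.01 and 3.91 after chitin and 0.109, 0.0366, 0.107 and 0.255 in mock, a change of 5.36 ± 0.54 (adjusted p = 2.27e-06). For both genes the groups were far apart, and the mock samples varied among themselves by more than the chitin samples, on a log scale.

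Genes of signalling proteins made up a further group. *AT1G07160* encodes a type 2C protein phosphatase, an enzyme class that removes phosphate from kinases and other proteins. It had 12.8, 11.9, 14.0 and 11.8 after chitin and 0.343, 0.0938, 0.338 and 0.186 in mock (5.89 ± 0.30, adjusted p = 1.89e-09). *CML37*, a gene of a calmodulin-like calcium sensor also known from wounding, had 19.6, 18.2, 27.5 and 25.2 after chitin and 0.553, 0.852, 0.951 and 0.551 in mock (4.98 ± 0.23, adjusted p = 5.87e-10). *AT4G28460*, which encodes the precursor of a small secreted peptide, was the highest of the 12 after chitin, with 34.5, 37.0, 50.4 and 52.4, and had 0.553, 2.04, 1.43 and 1.05 in mock (5.23 ± 0.46, adjusted p = 6.04e-07). The mock samples of this gene differed among themselves by a wider margin than those of *CML37*.

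Ubiquitin ligases were represented by *AT5G37490*, the gene of a U-box protein, with 14.2, 12.9, 12.4 and 12.2 after chitin and 0.530, 0.311, 0.237 and 0.295 in mock (5.30 ± 0.27, adjusted p = 2.66e-09). *AT3G02840*, the gene of a protein with armadillo repeats, a fold for binding other proteins, had 37.8, 31.9, 39.2 and 40.1 after chitin and 0.543, 1.04, 1.18 and 0.841 in mock (5.42 ± 0.27, adjusted p = 1.88e-09). *AT3G55840*, related to a nematode resistance gene of sugar beet, had 13.3, 11.9, 13.2 and 12.5 after chitin and 0.229, 0.402, 0.519 and 0.250 in mock, and its change of 5.26 ± 0.22 had an adjusted p of 3.37e-10. In all 3 the mock samples lay near or under the array median and the chitin samples within narrow limits.

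The remaining 4 of the 12 are *AT4G18540*, *AT4G04480*, *AT2G36440* and *AT1G58420*, whose roles are not given here. *AT1G58420* had the smallest adjusted p of the 12 (6.52e-11), with 17.0, 15.7, 15.3 and 19.1 after chitin and 0.550, 0.763, 0.515 and 0.540 in mock (4.84 ± 0.17). *AT4G18540* had the largest fitted change, 6.23 ± 0.80 (adjusted p = 3.32e-05), with 4.75, 5.00, 3.42 and 3.77 after chitin. Its mock samples lay between 0.0109 and 0.234, so the size of the change rests on signals far below the array median. With an offset of 32 added to the signals before the logarithm the change of *AT4G18540* was 4.03, that of *AT4G04480* was 4.92 against 6.22 without it, and that of *AT2G36440* was 4.07 against 5.75.

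**Figure D1:**
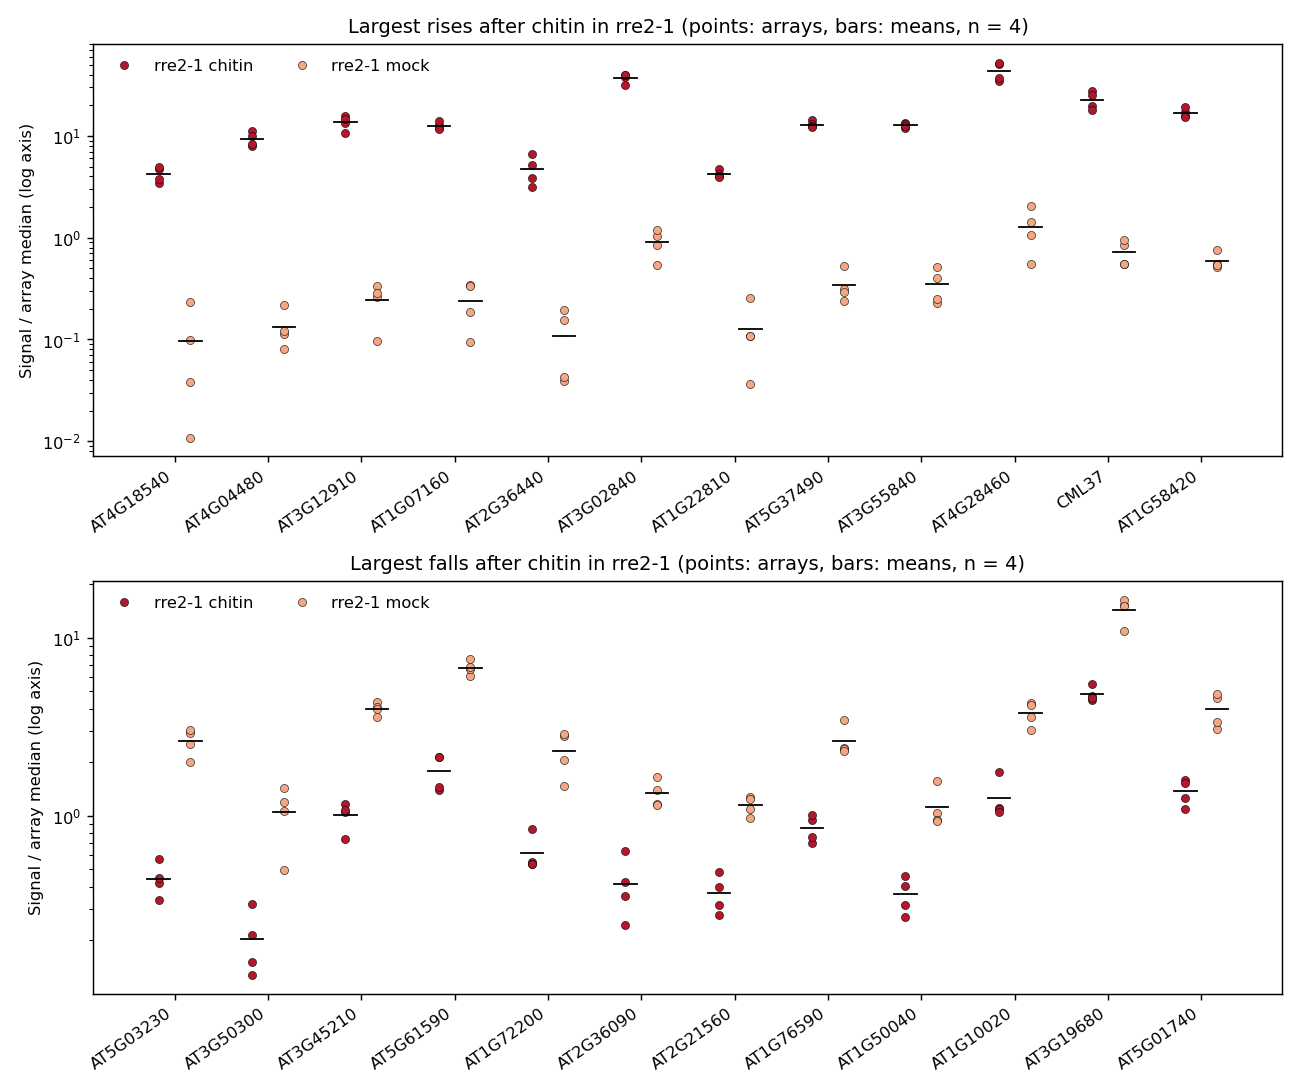
Relative signal (signal divided by the array median, logarithmic axis) of the 12 largest rises (upper panel) and the 12 largest falls (lower panel) with a single gene in *rre2-1*. Points are arrays and bars are means (n = 4), chitin left of mock for each gene. The 4 chitin and 4 mock samples do not overlap for any of these genes, which the choice of genes required, and the rises span larger ratios than the falls.

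The falls were smaller. The largest with a single gene was that of *AT5G03230*, whose relative signals were 0.422, 0.338, 0.447 and 0.572 in the chitin samples of *rre2-1* and 2.92, 3.02, 2.00 and 2.52 in its mock samples. The log2 change was -2.56 ± 0.26 (adjusted p = 3.08e-06, limma), a 5.91-fold decrease. *AT3G45210*, which belongs like *AT5G03230* to a plant family of small proteins studied in leaf senescence, had 1.16, 1.05, 0.746 and 1.07 after chitin and 4.37, 4.10, 3.95 and 3.59 in mock (-2.01 ± 0.15, adjusted p = 1.24e-07).

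Regulatory genes were among the falls as well. *AT5G61590*, known as *DEWAX*, encodes an ERF-type repressor of cuticular wax synthesis. It had 2.15, 1.39, 1.46 and 2.14 after chitin and 6.10, 6.65, 6.83 and 7.55 in mock (-1.95 ± 0.20, adjusted p = 3.23e-06). *AT1G72200*, a RING-type gene of the *ATL* family and so a relative of the mutated gene, had 0.551, 0.535, 0.848 and 0.540 after chitin and 2.81, 1.46, 2.88 and 2.05 in mock (-1.87 ± 0.23, adjusted p = 1.66e-05). *AT1G76590*, a gene of the PLATZ family of zinc-dependent DNA-binding proteins, fell by 1.62 on the log2 scale, and the F-box gene *AT2G36090* fell by 1.76. An F-box protein is the substrate-binding subunit of a ubiquitin ligase.

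*AT1G50040*, *AT1G10020* and *AT3G19680* encode proteins of 1 plant family of unknown function, and all 3 are among the 12 largest falls. *AT3G19680* had the highest level of them, with 4.67, 4.47, 5.49 and 4.57 after chitin and 10.9, 15.2, 16.3 and 15 in mock. The log2 changes of *AT1G50040*, *AT1G10020* and *AT3G19680* were -1.62, -1.61 and -1.57. The family was noticed after the values were seen. *AT3G50300*, the gene of an acyltransferase, fell by 2.35, *AT2G21560* fell by 1.66 and *AT5G01740* fell by 1.52.

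The annotation linked 9006 of the probe sets tested to 1 gene and 341 to several, and 7183 are not listed in it, so that many well-known defence genes are not analysed here. The 35 gene lists held 327 tested probe sets, 44 of which rose and 11 of which fell in *rre2-1*. Beside them stand the 8.29% of rises and 3.82% of falls among all probe sets. No test of a list was made, and the counts and medians are descriptions. List members were matched by symbol or by a fixed set of loci, so a list need not hold every gene of its family. The members are given by role, immune regulators first.

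All 4 tested members of the list of TIR-type immune genes rose in *rre2-1*, with a median change of 2.72. *AT2G32140*, a TIR-domain gene described below, is not in the list. TIR domains occur in many intracellular plant immune receptors. *AT1G66090* had relative signals of 29.8, 28.6, 28.7 and 28.7 after chitin and 3.42, 2.15, 2.30 and 2.52 in mock (3.50 ± 0.14, adjusted p = 2.11e-10, limma). *AT1G72950* changed by 3.55, *AT1G72920* by 1.94 and *AT1G72940* by 1.90. *AT1G72920*, *AT1G72940* and *AT1G72950* lie close together on chromosome 1 and are similar in sequence, so cross-hybridization between them was not tested.

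Of 6 tested WRKY genes, 3 rose. WRKY factors bind W-box elements in promoters of defence genes. *WRKY53*, known from senescence and basal defence, had 41.6, 50.2, 62.4 and 44.0 in the chitin samples of *rre2-1* and 4.10, 4.33, 5.11 and 3.72 in its mock samples (3.51 ± 0.19, adjusted p = 4.74e-09). *WRKY22*, which acts downstream of MAP kinases in flagellin signalling, changed by 2.88 and *WRKY6*, a senescence and phosphate regulator, by 1.33. The zinc-finger repressor gene *STZ* reached 108, 105, 116 and 127 after chitin, against 11.2, 16.3, 27.8 and 20.4 in mock (2.67 ± 0.23, adjusted p = 3.84e-07). Of 2 tested genes of elicitor perception 1 rose, *BIK1*, a kinase that relays signals from several pattern receptors, by 0.97. *EFR*, the receptor gene for bacterial elongation factor Tu, did not pass (0.11, adjusted p = 0.781).

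Of 16 tested genes of calcium signalling, 8 rose and none fell in *rre2-1*, with a median change of 0.90. Calmodulin-like proteins bind calcium and pass the signal on, and the glutamate receptor-like channels can conduct calcium across the plasma membrane. *CML42* had 43.9, 39.2, 32.7 and 39.3 after chitin and 7.19, 5.79, 7.71 and 9.88 in mock (2.36 ± 0.17). *CML37*, described above, is the largest rise of the list. *CML38* changed by 1.53, *CML23* by 1.39 and *CML41* by 0.83, of which *CML38* and *CML41* did not pass in every fit that left out 1 array. *CML38* was the least even of these, with 8.49, 7.52, 15.2 and 11.1 after chitin and 1.48, 2.56, 7.52 and 5.36 in mock, so that its groups met at 7.52. Among the channels, *GLR2.8* changed by 4.19 and *GLR2.9* by 3.79, both against mock samples below 0.3, and the channel gene *ATGLR1.2* by 1.40. With the offset *GLR2.8* and *GLR2.9* changed by 3.23 and 2.32. The list medians were 0.53 in *atl9-1*, where 7 of the 16 rose, and 0.56 in Col-0, where 6 did.

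Of the 13 tested members of the list of ATL and PUB ubiquitin ligases, 4 rose and 1 fell in *rre2-1*. *AT5G37490* and *AT1G72200*, described above, are not in the list. *PUB23* had 42.8, 40.6, 50.3 and 37.1 after chitin and 4.28, 4.75, 7.80 and 6.18 in mock (2.92 ± 0.18, adjusted p = 1.88e-08). *PUB22* changed by 2.76 and *PUB24* by 2.04, so that all 3 of these known negative regulators rose in the mutant. The RING-type gene *AT4G15975*, like *ATL8* a relative of the mutated gene, changed by 2.61, with 8.37, 6.59, 6.01 and 5.48 after chitin and 1.19, 0.943, 0.761 and 1.53 in mock. *ATL8* fell by 1.08, a call that was lost in 3 of the fits that left out 1 array. In Col-0 *AT4G15975* rose by 2.48 and *ATL8* fell by 1.11 (adjusted p = 0.0131, limma). In *atl9-1* *AT4G15975* rose by 2.52, and *ATL8* did not pass (-0.56). The changes of *PUB22*, *PUB23* and *PUB24* were 2.50, 3.11 and 2.21 in *atl9-1* and 1.85, 2.49 and 1.92 in Col-0.

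Hormone lists were small. For salicylate and related immune regulators, 2 of 3 tested genes rose in *rre2-1*, *GRX480*, a glutaredoxin that links salicylate and jasmonate signalling, by 1.47, and *SAG101*, a partner of EDS1, by 0.72. For jasmonate, 1 of 6 rose and 1 fell. *OPCL1*, which encodes a ligase of jasmonate synthesis, had 32.4, 29.7, 37.6 and 34.7 after chitin and 13.7, 16.1, 18.8 and 19.4 in mock (0.99 ± 0.16, adjusted p = 0.00028). *MYC4*, a transcription factor of jasmonate signalling, fell by 0.93. For ethylene 1 of 3 rose (*ARL*, a gene of organ growth, by 1.60), for auxin 1 of 7 fell (*GH3.17*, which conjugates auxin to amino acids, by 0.94), and for cytokinin and gibberellin 1 of 4 fell (*GID1A*, a gibberellin receptor gene, by 0.71). Of 2 abscisic acid genes none passed. *MYC4*, *GH3.17* and *GID1A* did not pass in every fit that left out 1 array.

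Among genes of secondary metabolism both rises and falls were called, beside the 8.29% of rises and 3.82% of falls among all probe sets tested. *CCR2*, cinnamoyl-CoA reductase 2, an enzyme of monolignol synthesis known from defence, had 13.3, 17.2, 15.2 and 15.1 after chitin and 1.97, 1.82, 1.97 and 2.13 in mock (2.94 ± 0.13, adjusted p = 3.61e-10). *CCOAMT*, a methyltransferase gene of the same route, changed by 1.25 (adjusted p = 0.0239), and lost its call in 7 of 28 other settings. They were the 2 rises among 8 phenylpropanoid and anthocyanin genes, of which none fell. Of 41 UDP-glycosyltransferase genes, whose products attach sugars to hormones and small metabolites, 5 rose and 6 fell. *UGT71B6*, which can glucosylate abscisic acid, rose by 2.27, and *UGT73B5*, *UGT73D1*, *UGT76D1* and *UGT73B4* rose by 1.20, 1.33, 1.02 and 0.85. The 6 that fell were *UGT76E11* (-1.01), *UGT84A3* (-0.83), *UGT71C4* (-0.76), *UGT78D1* (-0.69), *UGT72E2* (-0.63) and *GT72B1* (-0.57). The call of *UGT84A3* was lost in 16 of 28 other settings, that of *UGT78D1* in 8, that of *GT72B1* in 5 and that of *UGT72E2* in 4. The settings include a call that required at least 2-fold as well, where any smaller change was lost by definition. Of 12 tested cytochrome P450 genes 3 rose, *CYP71B5* by 1.75, *CYP71B22* by 1.20 and *CYP71B6* by 0.66, and *CYP71B37* fell by 0.76 (adjusted p = 0.0398). The call of *CYP71B37* was lost in 16 of 27 other settings, that of *CYP71B6* in 8 of 28 and that of *CYP71B22* in 2 of 28. None of 13 glutathione S-transferase genes and none of 3 glucosinolate or camalexin genes passed in *rre2-1*.

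In the list of cell wall loosening and growth, 6 of 44 tested genes rose in *rre2-1* and none fell. *XTH18*, the gene of a xyloglucan-modifying enzyme, had 32.7, 38.4, 40.8 and 32.9 after chitin and 4.12, 8.01, 4.83 and 3.84 in mock (2.86 ± 0.22, adjusted p = 1.29e-07). Its relatives *XTH19* and *XTH20* changed by 1.55 and 1.08, the expansin-like genes *EXLA3* and *EXLA2* by 1.77 and 0.78, and the cellulase gene *GH9C3* by 2.24. The call of *EXLA2* was lost in 6 of 27 other settings, including the setting that required at least 2-fold as well. The level of *GH9C3* stayed under the array median, at no more than 0.748 after chitin and 0.213 in mock.

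Of 11 tested genes of protein folding, degradation and stress of the endoplasmic reticulum, 1 rose. This was *BZIP60*, the transcription factor gene of the unfolded protein response, with 64.4, 71.1, 59.3 and 75.1 after chitin and 20.8, 20.7, 28.6 and 26.2 in mock (1.49 ± 0.17, adjusted p = 7.63e-06). Its changes in *atl9-1* and Col-0 were 1.45 and 1.52. Of 8 oxidase and peroxidase genes, the peroxidase gene *AT5G64120* rose by 0.79, and of 2 genes of the heat shock list the chaperone gene *Hsp70-2* rose by 0.64. None of 76 organellar genes, 19 transporter genes, 8 secreted defence peptide genes, 3 root tissue markers and 4 reference genes passed in *rre2-1*, and the reference genes changed by -0.01 to 0.18.

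**Figure D2:**
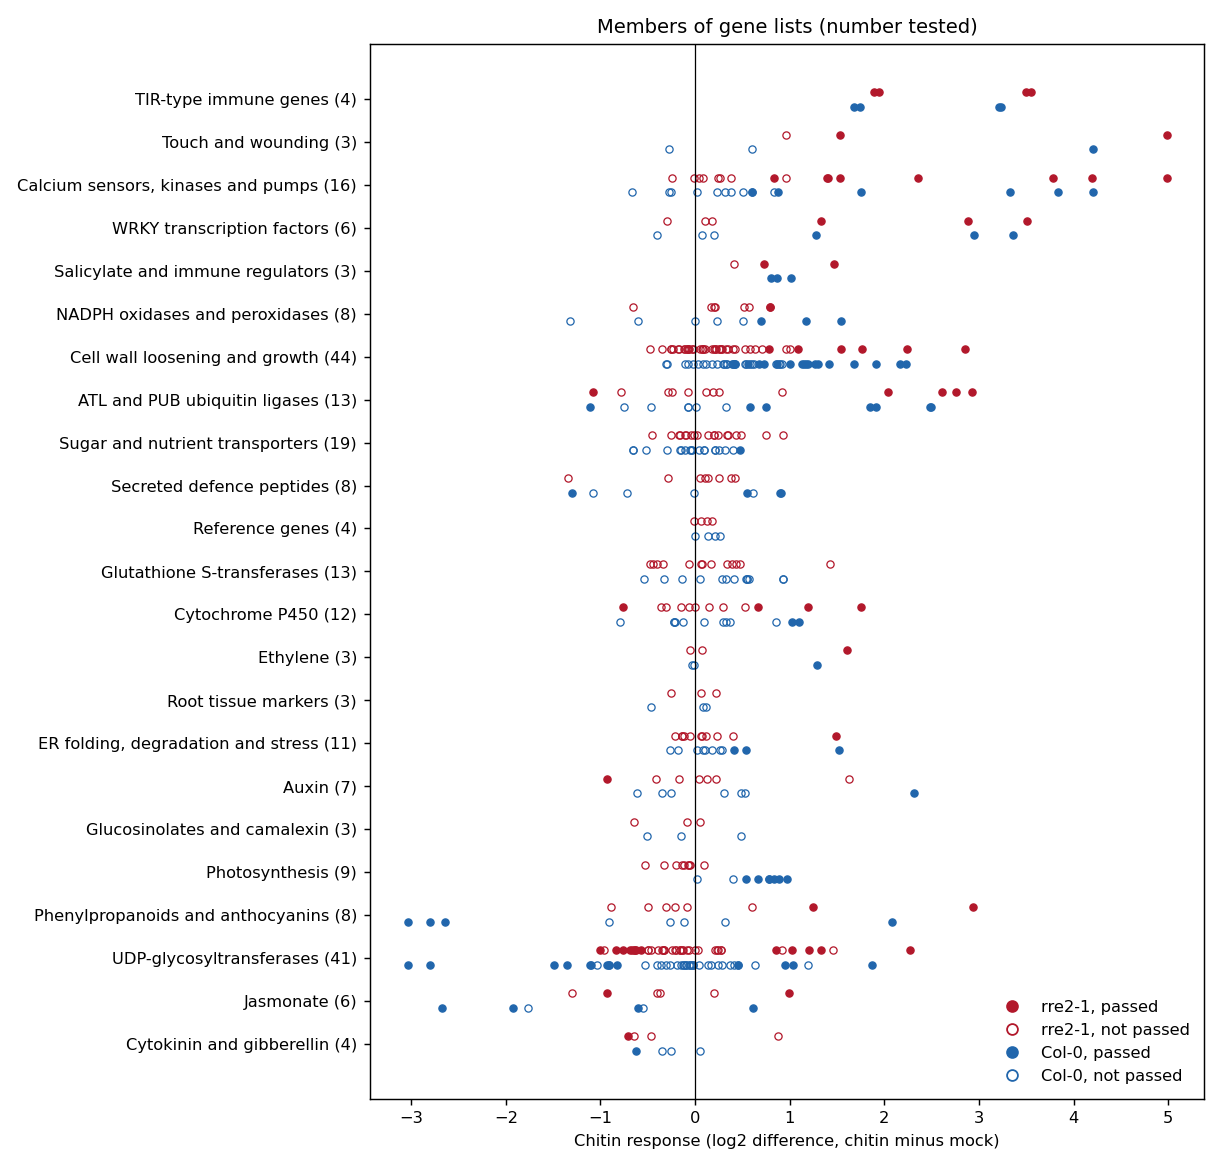
Chitin response (log2 difference, chitin minus mock) of the tested members of gene lists in *rre2-1* (red, upper line of points) and Col-0 (blue, lower line), with the number tested in brackets. Filled points passed and open points did not. All 4 members of the TIR list rose in both lines, while in the photosynthesis list none of 9 passed in *rre2-1* and 7 rose in Col-0.

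In *atl9-1* 1279 probe sets rose (7.74%) and 511 fell (3.09%) in a fit of all 24 arrays. In Col-0 1763 rose (10.7%) and 803 fell (4.86%) in the fit of 16 arrays that gave the counts of *rre2-1*. Each line had its own mock samples. Of the rises of *rre2-1*, 1016 were also called in *atl9-1* (74.2% of the calls of *rre2-1*, 79.4% of those of *atl9-1*), and 941 in Col-0 (68.7% and 53.4%). Of the falls, 271 were also called in *atl9-1* (43.0% of the calls of *rre2-1*, 53.0% of those of *atl9-1*) and 280 in Col-0 (44.4% and 34.9%). With the 3 lines in 1 fit of all 24 arrays, an alternative added after the data were seen, 1413 rose (8.55%) and 732 fell (4.43%) in *rre2-1*, and 1944 rose (11.8%) and 938 fell (5.67%) in Col-0. Of these rises of *rre2-1*, 1037 were then also called in *atl9-1* (73.4% of the calls of *rre2-1*, 81.1% of those of *atl9-1*) and 975 in Col-0 (69.0% and 50.2%), and of these falls 38.0% were also called in *atl9-1* (54.4% of the calls of *atl9-1*) and 319 in Col-0 (43.6% and 34%). With the first fits 843 probe sets rose and 186 fell in all 3 lines. Rises called in *rre2-1* and in neither other line numbered 256, but 206 of these had the same sign in Col-0, and 1 passed the test of the difference from Col-0. Falls of this kind numbered 266, of which 4 passed that test. The unadjusted p of that test (limma) was under 0.05 for 108 of these rises and 119 of these falls, beside 13.1% of all probe sets tested. Both sets were chosen on arrays that the test also uses. Opposite calls in Col-0 were found for 2 rises and 7 falls. Over all probe sets tested the changes in *rre2-1* correlated with those in *atl9-1* at Pearson's r = 0.767 and with those in Col-0 at r = 0.695, as a description across probe sets, which are not independent.

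The named rises were large in every line. *AT3G12910* changed by 5.92 in *rre2-1*, 5.35 in *atl9-1* and 5.11 in Col-0. *AT1G07160* changed by 5.89, 6.75 and 4.98 in *rre2-1*, *atl9-1* and Col-0, and *AT3G02840* by 5.42, 5.58 and 4.98. *WRKY53* changed by 3.51 in *rre2-1*, 3.47 in *atl9-1* and 3.37 in Col-0. Of the genes named for their rise, *AT2G36440* had smaller values in *rre2-1* (5.75) and *atl9-1* (5.20) than in Col-0 (7.71). These values are without the offset, which lowered that of *rre2-1* to 4.07 and is not given here for the other lines. None of these genes passed the difference from Col-0.

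**Figure D3:**
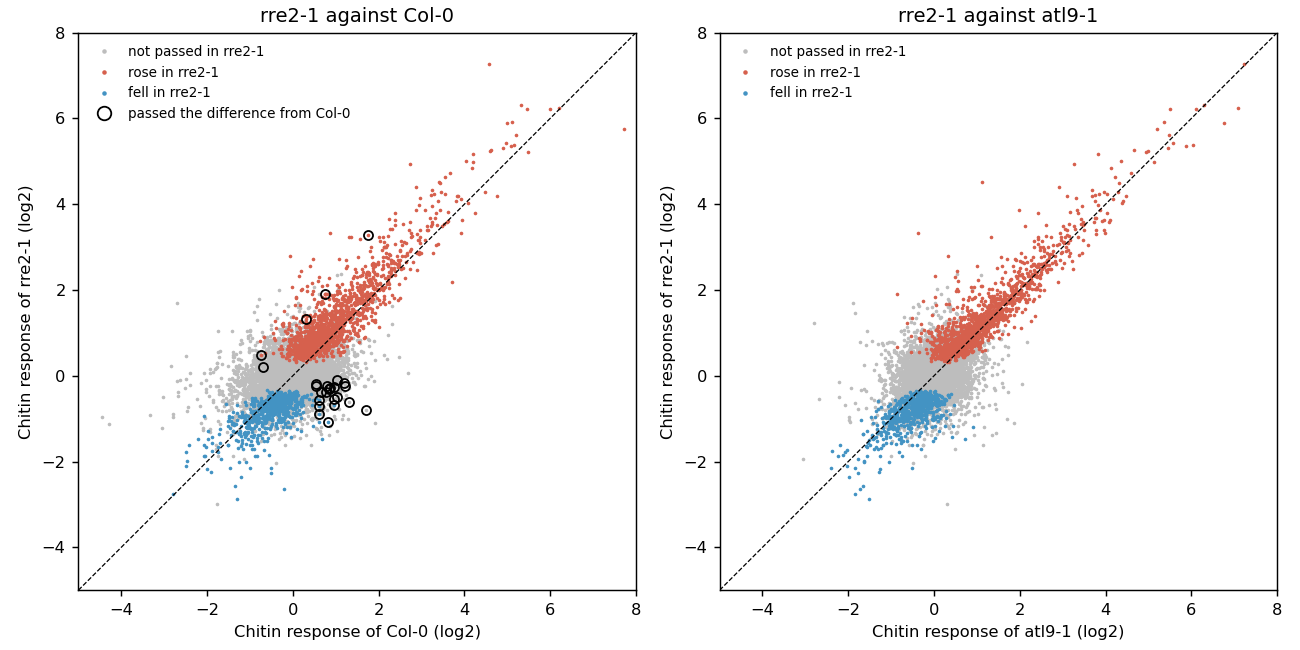
Chitin response of *rre2-1* (log2, vertical) against that of Col-0 (left panel) and *atl9-1* (right panel), each point being 1 probe set tested, with rises of *rre2-1* in red, falls in blue and the line of equal response dashed. Circles in the left panel mark the 25 probe sets that passed the difference from Col-0, and no probe set passed the difference from *atl9-1*.

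The size of the rises was compared on probe sets chosen without arrays of *rre2-1* or Col-0. A fit of the *atl9-1* arrays alone called 1136 rises. Over these the median log2 change was 1.22 in *rre2-1* and 0.97 in Col-0, and 859 (75.6%) had the larger value in *rre2-1*, against 46.9% of all probe sets tested. The per-array median of their log2 level was 2.98, 3.02, 3.11 and 2.99 in the chitin samples of *rre2-1* and 2.82, 2.76, 2.78 and 2.74 in those of Col-0. In mock it was 1.44, 1.58, 1.77 and 1.60 in *rre2-1* and 1.49, 1.64, 1.55 and 1.62 in Col-0. The chitin samples of the lines therefore did not overlap, and the mock samples did. The median change was 1.17 in *atl9-1* itself, on the arrays that chose the probe sets. The comparison was chosen after the data had been seen and no test was made of it. Its choice of probe sets is not neutral between the lines. The changes of *rre2-1* correlated with those of *atl9-1* at Pearson's r = 0.767 and with those of Col-0 at r = 0.695. Probe sets that rose in Col-0 and were not called in *atl9-1* are left out of it. With the values as deposited the medians were 1.04 in *rre2-1* and 0.76 in Col-0, and with any 1 array left out the share with the larger value in *rre2-1* stayed between 71.0% and 79.5%. Over the 383 falls called on the *atl9-1* arrays the medians were -0.70 in *rre2-1* and -0.62 in Col-0.

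The difference between the chitin responses of *rre2-1* and Col-0 passed for 25 probe sets, higher in *rre2-1* for 5 (0.0302%) and lower for 20 (0.121%). At an unadjusted p of 0.05 there were 2161. No probe set passed the difference from *atl9-1* in either direction (0% and 0%), where 1248 had an unadjusted p under 0.05 in limma and the smallest adjusted p was 0.2. The 25 calls depended on single arrays. Without chitin replicate 1 of *rre2-1* there were 35 higher and 130 lower. None was lower without any 1 of 10 other arrays, which were chitin replicates 2, 3 and 4 and mock replicates 1 and 4 of *rre2-1* and chitin replicates 2, 3 and 4 and mock replicates 1 and 3 of Col-0. They also depended on scaling, with 1 higher and 2 lower as deposited and none after quantile normalization (2206 at an unadjusted p under 0.05). With the scan day of the arrays as a block none passed in either direction and 2011 had an unadjusted p under 0.05 in limma.

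Of the 25, 11 matched 1 gene. The largest gain was that of *AT2G32140*, the gene of a TIR-domain protein. Its relative signals were 7.36, 9.62, 9.93 and 6.63 after chitin and 0.848, 0.987, 0.793 and 0.790 in mock in *rre2-1*, and 3.26, 3.07, 3.53 and 3.07 after chitin and 0.682, 1.31, 0.952 and 0.977 in mock in Col-0. The mock samples of the lines overlapped and the chitin samples did not. The change was 3.28 in *rre2-1* and 1.76 in Col-0, a difference of 1.52 ± 0.25 (SE, adjusted p = 0.0307, limma). In *atl9-1* the change of *AT2G32140* was 3.10.

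*AT1G61370*, the gene of a receptor kinase with an S-locus lectin domain, had 12.1, 15.9, 15.3 and 15.6 after chitin and 3.60, 3.76, 4.23 and 4.12 in mock in *rre2-1*. In Col-0 it had 6.99, 8.0, 9.54 and 7.10 after chitin and 4.82, 4.82, 3.91 and 5.08 in mock. The changes were 1.90 and 0.76, and the difference was 1.14 ± 0.19 (adjusted p = 0.0307). *AT3G55470*, which encodes a protein with a calcium-dependent lipid-binding (C2) domain, changed by 1.32 in *rre2-1* and 0.31 in Col-0 (difference 1.01 ± 0.18, adjusted p = 0.0373). *AT5G54940*, related to a translation initiation factor, did not pass in *rre2-1* (0.21) and fell by 0.70 in Col-0, with a difference of 0.91 ± 0.16 (adjusted p = 0.0334). In *atl9-1* these 3 genes changed by 1.48, 1.00 and -0.04.

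All 20 probe sets with the lower response had negative changes in *rre2-1*, where 5 fell, and all 20 rose in Col-0. *LHCB4.2*, an antenna protein gene of photosystem II, had 16.5, 11.6, 12.9 and 12.2 after chitin and 24.5, 14.0, 19.2 and 19.8 in mock in *rre2-1*, and 29.0, 34.6, 37.2 and 40.0 after chitin and 17.0, 20.4, 15.2 and 19.3 in mock in Col-0. The changes were -0.53 and 0.97, a difference of -1.50 ± 0.24 (adjusted p = 0.0307). *AT3G54400*, an aspartyl protease gene, had 10.6, 6.51, 5.59 and 8.19 after chitin and 9.34, 8.70, 9.71 and 8.0 in mock in *rre2-1*, and 20.6, 20.6, 22.8 and 22.3 after chitin and 8.62, 8.88, 9.93 and 9.69 in mock in Col-0. Its groups overlapped in *rre2-1* and stood apart in Col-0, with a difference of -1.47 ± 0.23 (adjusted p = 0.0307). The β-tubulin gene *TUB1* changed by -0.17 in *rre2-1* and 1.19 in Col-0, and *AT4G23820*, of the polygalacturonase family of pectin-degrading enzymes, by -0.11 and 1.03. *AT5G02160* changed by -0.49 and 1.03. A further gene with the lower response, *AT3G20820*, lay outside the 6 largest and changed by -0.27 in *rre2-1* and 0.86 in Col-0, a difference of -1.14 (adjusted p = 0.0429). *AT1G75460*, with the substrate-binding domain of LON proteases, fell by 0.89 in *rre2-1* and rose by 0.60 in Col-0, the only single-gene case with opposite calls among those named. In *atl9-1*, *LHCB4.2* changed by -0.24, *AT3G54400* by -0.29, *TUB1* by -0.06 and *AT4G23820* by -0.13, while *AT5G02160* changed by 0.63, *AT1G75460* by 0.38 and *AT3G20820* by 0.22. None of these passed in *atl9-1*. Its chitin samples (replicates 1 to 4) were uneven, with 27.6, 12.7, 18.2 and 33.9 for *LHCB4.2* and 5.25, 1.90, 2.61 and 4.83 for *AT5G02160*. *AT1G75460* and *AT4G23820* were also lower in replicates 2 and 3, but *AT3G54400*, *TUB1* and *AT3G20820* did not show this split. Replicates 2 and 3 were scanned on day 4, replicate 1 on day 2 and replicate 4 on day 3. The cause was not tested. The difference between *rre2-1* and *atl9-1* was -1.12 for *AT5G02160* (unadjusted p = 0.00395, limma) and -1.26 for *AT1G75460* (unadjusted p = 0.00116), and neither passed after adjustment (adjusted p = 0.574 and 0.501).

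**Figure D4:**
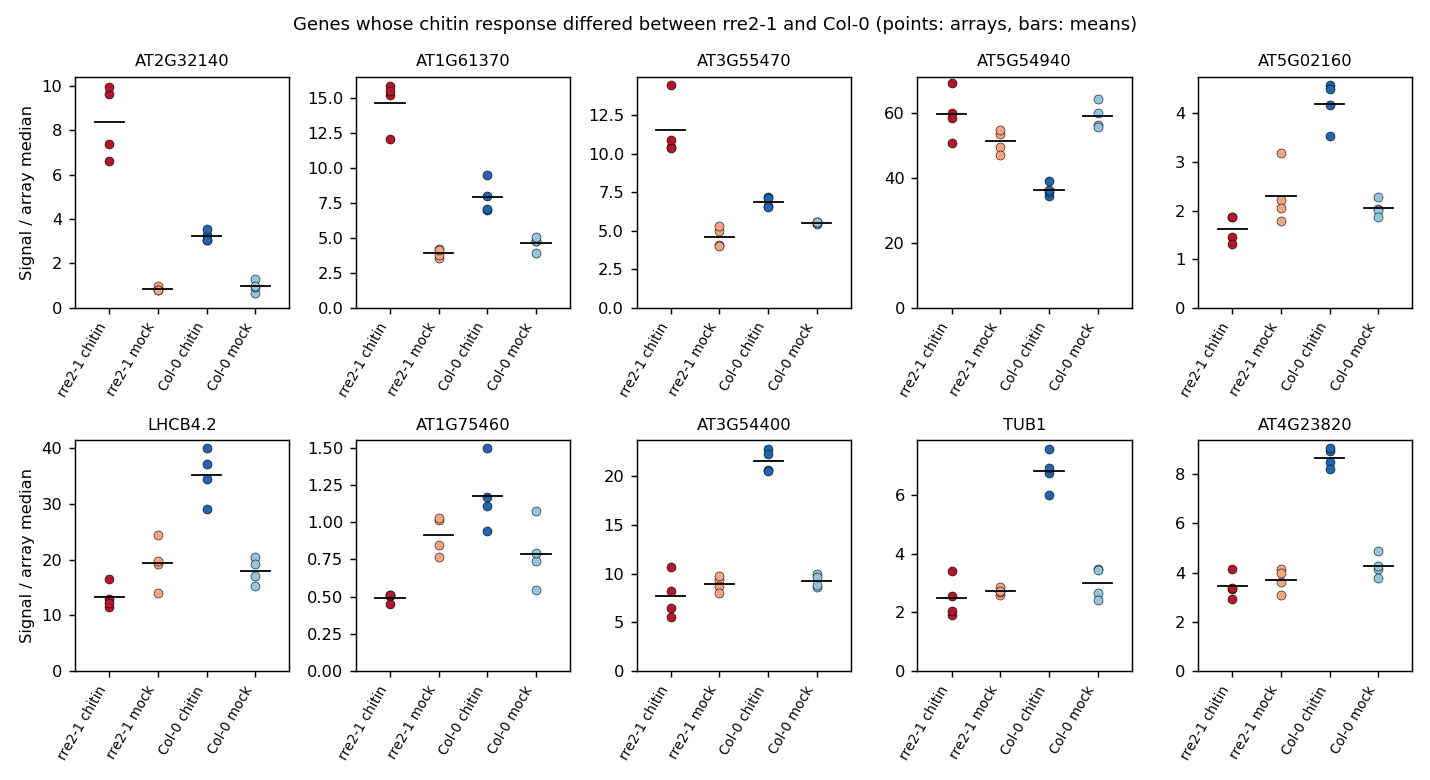
Relative signal (linear axes from 0) of the 10 genes named for a difference between the chitin responses of *rre2-1* and Col-0. Points are arrays and bars are means (n = 4), in the order *rre2-1* chitin, *rre2-1* mock, Col-0 chitin and Col-0 mock. In the 6 genes with the lower response in *rre2-1* the Col-0 chitin mean is the highest, with overlapping samples in *AT1G75460*, and in *AT2G32140* the mock samples of both lines lie near 1.

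The photosynthesis list showed this pattern in most of its members. In *rre2-1* none of 9 tested genes passed and the median change was -0.12, in *atl9-1* 1 rose and the median was 0.14, and in Col-0 7 rose and the median was 0.78. The difference between *rre2-1* and Col-0 was negative for 8 of 9 and had an unadjusted p under 0.05 for 8, beside 13.1% of all probe sets, but passed for *LHCB4.2* only. Over all probe sets tested this difference was positive for 46.9%. *PSBY*, a small subunit gene of photosystem II, had 18.7, 17.1, 16 and 16.8 after chitin and 22.1, 18.8, 24 and 21.6 in mock in *rre2-1*. In Col-0 it had 27.3, 26.7, 28.7 and 32.9 after chitin and 18.0, 21.4, 17.7 and 22.8 in mock. *PSAN*, a subunit gene of photosystem I, varied by more between arrays of *rre2-1*, with 15, 11.2, 7.91 and 8.02 after chitin and 19.2, 7.84, 8.91 and 14.0 in mock. In the cell wall list, 6 of 44 genes rose in *rre2-1* (median 0.20), 2 in *atl9-1* (median -0.05) and 17 in Col-0 (median 0.57). The difference between *rre2-1* and Col-0 was negative for 31 of the 44 and had an unadjusted p under 0.05 (limma) for 14. Beside these stand the 46.9% positive and the 13.1% under 0.05 of all probe sets. It passed for *TUB1*, which the list holds as a gene of the growing cell's microtubules. Of the phenylpropanoid and anthocyanin genes, none fell in *rre2-1* and 3 fell in Col-0. *DFR*, dihydroflavonol reductase of anthocyanin synthesis, changed by -0.09 in *rre2-1* and -2.64 in Col-0, but the difference did not pass (adjusted p = 0.162). *DFR*, *PSBY* and *PSAN* were singled out after their values had been seen.

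**Figure D5:**
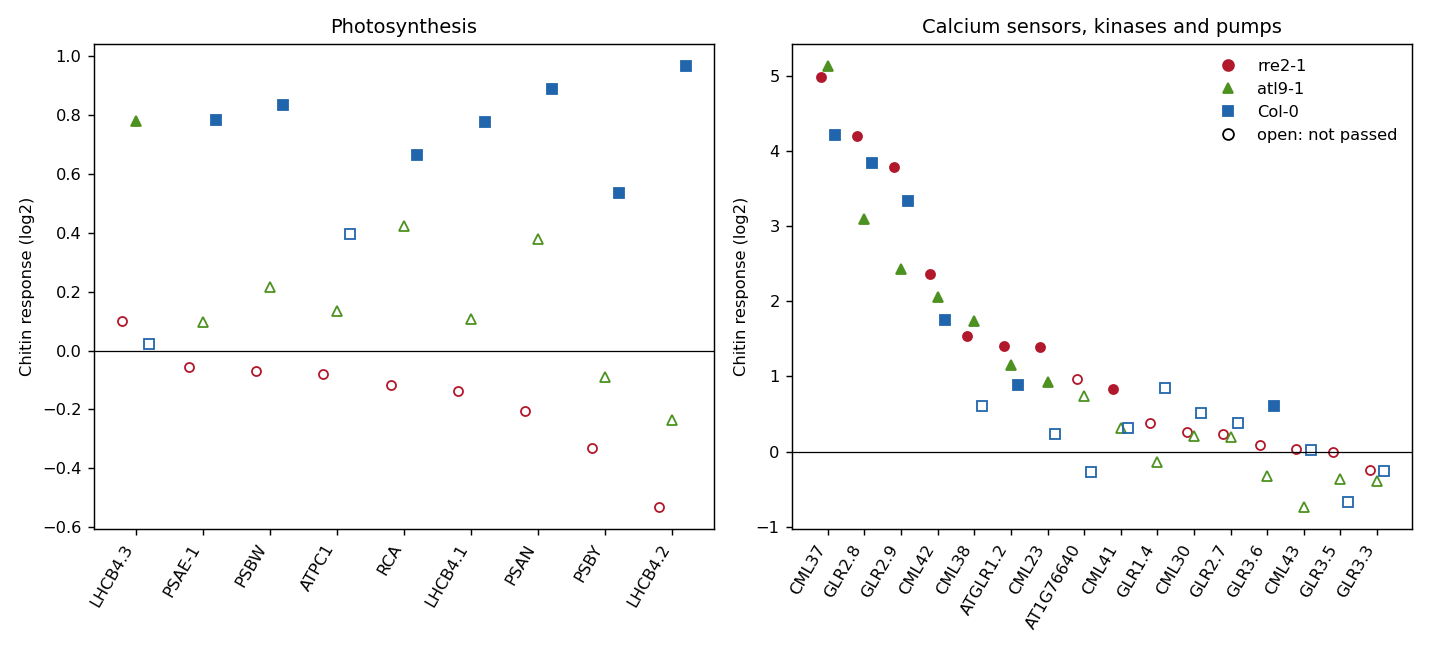
Chitin response (log2) of each tested gene of photosynthesis (left panel) and calcium signalling (right panel) in *rre2-1* (circles), *atl9-1* (triangles) and Col-0 (squares). Filled symbols passed and open ones did not. In the left panel no circle is filled, while 7 Col-0 squares are filled and lie above 0, and in the right panel the leading genes rose in every line.

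The files give the scan day of each array. The mock samples of *rre2-1* were scanned on days 4, 1, 3 and 4 (replicates 1 to 4) and the chitin samples on days 4, 4, 1 and 3. Those of Col-0 were scanned on days 1, 4, 2 and 4 (mock) and on days 4, 1, 3 and 4 (chitin). In Col-0 day 2 held mock samples only and day 3 chitin samples only, so scan day and treatment cannot be fully told apart there. Deviations from the group means correlated at a mean r of 0.0743 between arrays of the same day and of -0.0387 between arrays of different days, and at 0.123 between arrays of *rre2-1* of the same day. The median change of the rises, which were called on these same arrays, was 1.23 on day 1, 1.06 on day 3 and 1.20 on day 4, and that of the falls was -0.74, -0.77 and -0.80. With the scan day as a block, 1352 rose and 622 fell in *rre2-1*, while no probe set passed the difference from Col-0.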

How the data were processed

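Signals of ATH1 arrays were extracted by the authors with Affymetrix software (GCOS per the labels, MAS5.0 per the paper), and the deposited values are linear intensities with a target of 500 per array. The later GeneSpring steps are not contained in them. Each array was divided by its median over 22746 probe sets, 64 controls being left out, and log2 was taken without an offset. The probe sets of highest mean over 24 arrays, as many as the paper defined as present, were tested in R 4.3.3 with limma 3.58.1 (lmFit, eBayes, Benjamini-Hochberg), with 4 group means over the 16 arrays of *rre2-1* and Col-0. Contrasts with *atl9-1* used all 24 arrays. The linear model of the *rre2-1* response was tested on simulated arrays with independent noise and no effect of scan day. The difference from Col-0 was not simulated, so the simulation says nothing of its calls. Precision is limited by the number of arrays.

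Probe sets were named from a platform table and TAIR10.1 gene names. Named are the 12 largest rises and falls that passed, matched 1 gene, had no overlap between groups and a mean relative signal of at least 1 in the higher group, up to 6 genes per direction that passed the difference from Col-0, and up to 4 members per list by adjusted p. The other list members that passed, and an 11th gene that passed the difference from Col-0, were named after their values were seen. The members, lists and rules were chosen with earlier results of these data known. After the values were seen, *CCR2* was moved to another list, organelle genes were listed by chromosome, and *CRT1*, a putative chitinase gene, a sterol glucosyltransferase gene, a peroxiredoxin gene and ubiquitin-conjugating enzymes were taken out of their lists. Matching by symbol leaves genes such as *AT3G12910* (NAC) and *AT1G22810* (AP2/ERF) out of the lists of their families. One label field calls chitin-treated Col-0 untreated, and titles and source names were followed. Of the 35 lists, 3 (MYB factors, ribosomal proteins and root triterpenes) had no tested member, and none of the listed ERF, NAC, MAP kinase and clock genes (1 tested each) passed. The alternatives were other scalings, filters and fits, blocks for replicate number and scan day, and each array left out in turn.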

Additional observations from a re-analysis of the deposited data

Results flagged for a closer look

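In 11 genes the chitin response of *rre2-1* differed from that of Col-0 by the limma test of the difference itself. The log2 difference was 1.52 for *AT2G32140*, 1.14 for *AT1G61370*, 1.01 for *AT3G55470* and 0.912 for *AT5G54940*. It was -1.52 for *AT5G02160*, -1.5 for *LHCB4.2*, -1.49 for *AT1G75460*, -1.47 for *AT3G54400*, -1.36 for *TUB1*, -1.14 for *AT4G23820* and -1.14 for *AT3G20820*. None of the 11 passed after quantile normalization or with the scan day as a block.

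Of 186 groups of 4 arrays of the genes described, 17 held a sample that stood apart from the other 3 by Dixon's criterion, and chance gives about 1 in 20. Among the chitin samples of *rre2-1*, replicate 1 stood apart for *AT1G61370* (relative signal 12.1, the others 15.3 to 15.9), *AT1G72920* (12.6, the others 17.1 to 17.7), *AT1G66090* (29.8, the others 28.6 to 28.7) and *AT3G20820* (5.43, the others 3.69 to 3.92). Chitin replicate 2 stood apart for *AT3G55470* (14.5, the others 10.4 to 10.9), *AT1G10020* (1.77, the others 1.05 to 1.11) and *AT1G75460* (0.447, the others 0.502 to 0.509). Chitin replicate 3 was high for *AT1G72200* (0.848, the others 0.535 to 0.551), *MYC4* (1.01, the others 0.601 to 0.652) and *UGT73B5* (9.56, the others 6.23 to 6.45), and low for *XTH20* (1.19, the others 1.86 to 1.92). Chitin replicate 4 was high for *CML41* (14.2, the others 7.15 to 7.44). Among the mock samples, replicate 3 was high for *UGT73B5* (3.34, the others 2.93 to 2.98) and *AT1G76590* (3.45, the others 2.30 to 2.42), replicate 2 for *AT1G58420* (0.763, the others 0.515 to 0.550) and *UGT73D1* (3.91, the others 2.37 to 2.52), and replicate 4 was low for *AT5G64120* (13.2, the others 18.9 to 19.7).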

How the results depend on the processing

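The 24 named rises and falls kept direction and call in all 664 comparisons with 28 settings. They had been chosen on these same arrays as the largest changes that passed, so this says little about the other calls. A stricter filter on low values left some of them, such as *AT4G18540* and *AT1G22810*, untested. The count of falls in *rre2-1* was 2105 as deposited and 1302 after quantile normalization. On the arrays of scan day 4 alone, added after the data were seen, 781 rose and 155 fell, and at least 2-fold changes numbered 822 and 181. With 1 array left out, 1202 to 1416 rose and 447 to 707 fell.

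The difference from Col-0 was the least stable. Higher and lower probe sets numbered 1 and 2 as deposited, 25 and 58 with the offset, 46 and 116 with a stricter filter, 16 and 24 with all 24 arrays, and 6 and 28 without moderation. They were 0 and 0 after quantile normalization, without the filter, with the replicate block, with the scan day as a block and on scan day 4 alone, where 2011 to 2408 probe sets (1224 on day 4) had an unadjusted p under 0.05 in limma. With 1 array left out they ranged over 0 to 35 higher and 0 to 130 lower. The cause was not tested.

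The difference from *atl9-1* gave 0 to 1 higher and 0 to 1 lower with 1 array left out, and 1 lower with the replicate block. The block gave 1313 rises and 557 falls in *rre2-1*. Replicate numbers were not used for pairing in the main fit. The deviations of 6 of 24 same-numbered pairs correlated above 0.1, and so did 2 of the 4 such pairs within *rre2-1*. The mean r was 0.0134 for the same number and -0.00428 for different numbers. These values cannot settle whether the cultures were paired. The difference in array medians ranged over -24.4 to -15.2 with 1 array left out. *MYC4*, *GH3.17*, *GID1A*, *CCOAMT*, *CYP71B6*, *CYP71B37*, *CML38*, *CML41*, *ATL8*, *EXLA2*, *GT72B1*, *UGT72E2*, *UGT78D1* and *UGT84A3* lost their call without some single arrays. Signals far under the array median limit the size of the largest rises.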
